A study of Drosophila melanogaster with 12 samples.

Results

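The transcripts described here encode the core scaffold of the active zone, the presynaptic site at which synaptic vesicles fuse. They are 6 genes, brp (FBgn0259246), Rbp (FBgn0262483), unc-13 (FBgn0025726), Rim (FBgn0053547), Fife (FBgn0264606) and Liprin-alpha (FBgn0046704), selected by their FlyBase symbols among the 10422 genes of the count table. All 6 genes were found in it, and all 6 passed the filter on low counts that left 7645 genes for testing. Heads of adult Drosophila melanogaster were used, and 3′ ends of RNA were counted in 12 libraries. In Pum xRIP, UV-cross-linked head extract of pumFlag flies, whose endogenous Pumilio (Pum) carries a Flag-HA tag at its C terminus, was immunopurified with an anti-Flag antibody (4 libraries). In control xRIP, the same immunopurification was carried out on untagged flies, named w118 in the labels (4 libraries). The 4 input libraries were head homogenate that had not been immunopurified, 1 from pumFlag flies, 1 from w118 flies and 2 of mixed genotype, whose columns were named fne and rbp9. The labels give the age as adult and the genotype as wt for every library, and per the methods flies of both sexes were used in equal amounts. Whole heads were used, so neurons, glia, photoreceptors, muscle and fat body all contributed RNA, and the tag marked Pum in every cell that makes it.

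An active zone holds a dense protein matrix that positions voltage-gated calcium channels and release-ready vesicles opposite the receptors of the partner cell. In flies this matrix forms the T-bar, which is built largely of Bruchpilot, the product of brp. RIM-binding protein (Rbp), Rim and Fife link the scaffold to calcium channels and vesicles, Unc-13 primes vesicles for fusion, and Liprin-alpha acts with Syd-1 in early assembly. Pum is a sequence-specific repressor of the PUF family, which binds the Pumilio Response Element (PRE) in 3′ UTRs of mRNAs and is known in fly neurons for its control of excitability and synaptic growth.

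The longest annotated 3′ UTRs of the 6 genes were searched for the PRE, written TGTANATA, on the transcribed strand. They held 11 matches, 4 of them in brp, 4 in unc-13 and 1 each in Rbp, Rim and Liprin-alpha, whereas Fife held 0. At least 1 match was found in 21.8% of the 9648 genes with an annotated 3′ UTR, whose median length was 292.5 bases. The 3′ UTRs of the scaffold genes were long, between 2078 bases in Liprin-alpha and 4391 bases in brp. Among genes with a 3′ UTR of similar length (80% to 125% of the length of the member), at least 4 matches occurred in 12.1% of 141 genes for brp and in 9.62% of 208 genes for unc-13. At least 1 match occurred in 57.3% of such genes for Rbp, 62.8% for Rim and 53.6% for Liprin-alpha. The reverse complement TATNTACA, counted the same way for comparison, occurred 4 times in brp, 5 times in Rbp, 0 times in unc-13, 3 times in Rim, 0 times in Fife and 2 times in Liprin-alpha. These are matches of letters, and the files do not show whether Pum occupied them.

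The matches of unc-13, whose transcript was enriched with Pum, are printed, and those of Rbp, Rim and Liprin-alpha for comparison. The sequences at the matches of brp, which was also enriched, are not reported here. Each line gives 28 bases of the transcribed strand of the dm6 genome, 5′ to 3′, with the PRE in capitals and the position of the 8 capitals, within 3′ UTRs annotated in BDGP6.54 of Ensembl.
unc-13 site 1, chr4:871137-871144, minus strand: cttgtacattTGTACATAatgcagggca
unc-13 site 2, chr4:871045-871052, minus strand: ttcctatttaTGTAAATAagtacctgta
unc-13 site 3, chr4:870478-870485, minus strand: atgccgagtgTGTATATAtttggactta
unc-13 site 4, chr4:868913-868920, minus strand: tcggtgcgacTGTATATAtttgggagct
Rbp site 1, chr3R:15400685-15400692, plus strand: atatattataTGTATATAtttaaaatat
Rim site 1, chr3R:17874608-17874615, minus strand: gaacctaagcTGTACATAggagatccac
Liprin-alpha site 1, chr2L:6732577-6732584, plus strand: catacacttaTGTAAATAtatttataca

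At the N of TGTANATA, unc-13 sites 1 to 4 had C, A, T and T. Sites 3 and 4 thus shared the 8 capitals, followed in both by tttgg, and differed in the other printed bases. Sites 1 and 2 lay before the most proximal of the 2 annotated transcript ends of the gene, so that the short and the long 3′ UTR both hold them. Sites 3 and 4 lay in the 3106 bases that only the longer 3′ UTR holds. The single sites of Rbp, Rim and Liprin-alpha all lay beyond the most proximal annotated end.

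**Figure D1:**
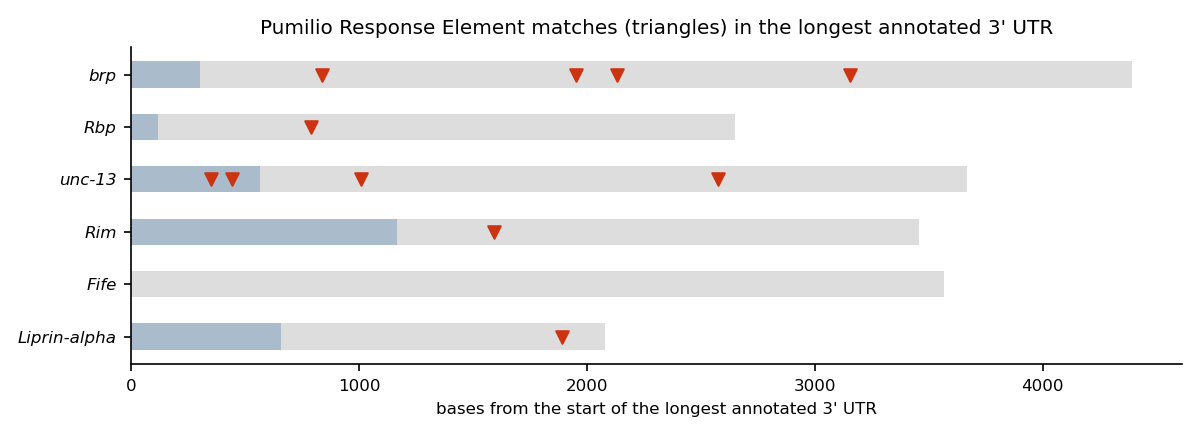
Position of PRE matches (triangles) along the longest 3′ UTR annotated for each gene, in bases from the first base of the 3′ UTR. The blue part of a bar ends at the most proximal annotated transcript end and the grey part lies beyond it, so that all 4 matches of brp and 2 of the 4 matches of unc-13 fall in the grey part.

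The inputs held 9563433 to 13726254 counts per library, control xRIP libraries 3342790 to 4485996 and Pum xRIP libraries 3050717 to 5051009. Levels are given as CPM, the count divided by the library size and scaled to a total of 1000000, after TMM scaling. The xRIP libraries varied far more than the inputs, with a common dispersion of 0.226 in input, 5.10 in control xRIP and 3.84 in Pum xRIP. They also contained fewer 3′ ends, with 28042 to 36620 clusters of 3′ ends detected in input, 6184 to 8612 in control xRIP and 7675 to 13481 in Pum xRIP. Detected clusters of Pum xRIP replicate 2 held a median of 193 counts, against 78 to 91 in the other Pum xRIP libraries. Transcripts of pum itself, the gene of the tagged protein, reached 1112 to 2420 CPM in Pum xRIP, against 0 to 47.5 CPM in control xRIP and 38.2 to 76.2 CPM in input. Markers of head neurons (elav, nSyb, Syt1, para, Syn and CadN) were detected in each of the 3 groups, and their summed level was 2047 to 4356 CPM in input, 269 to 643 CPM in control xRIP and 4125 to 8593 CPM in Pum xRIP. Its members differed between Pum xRIP and input, with means of 3079 and 766 CPM for para and 1641 and 693 CPM for Syt1, but 858 and 1047 CPM for nSyb and 65.1 and 129 CPM for Syn, and Syt1 alone of the 6 passed the test. Between inputs of bulk heads, fewer cells of a type and less RNA per cell cannot be told apart. A level in xRIP depends on what was recovered from the extract, and the paper counts para and Syt1 among its Pum targets. The labels do not say that replicates came from separate fly cultures, so p-values measure only the spread between these libraries.

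Pum xRIP was compared with input to ask which scaffold transcripts were enriched with Pum. Calls required a log2 fold change beyond 1 in either direction and an adjusted p under 0.05, in 1 edgeR quasi-likelihood fit of all 12 libraries and all 7645 genes. Transcripts of brp and unc-13 were enriched in Pum xRIP over input, and those of Rim, Fife, Rbp and Liprin-alpha did not pass the test. Thus 2 of 6 scaffold genes were called higher and 0 lower, where 0.549% of all tested genes were higher and 4.87% were lower. The median log2 fold change was 1.43 over the 6 genes and −0.54 over all genes tested. The latter shifted with scaling, to −0.08 with DESeq2 size factors and to −0.37 with library totals. All 6 log2 fold changes remained above 0 under each of the 19 alternatives run.

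The brp transcript (chromosome 2R, 9503765 to 9541565, plus strand, dm6) encodes Bruchpilot, the ELKS/CAST-related protein of the T-bar. It reached 1258, 1202, 1154 and 1113 CPM in Pum xRIP replicates 1 to 4. It was at 191, 256, 187 and 189 CPM in the w118, pum, fne and rbp9 inputs and at 79.4, 21.6, 89.5 and 66.7 CPM in control xRIP replicates 1 to 4. The 3 groups did not overlap, with Pum xRIP highest and control xRIP lowest. The Pum xRIP libraries lay close together at 1182 ± 62.6 CPM (SD, n = 4), a coefficient of variation of 5.29%. The mean was 5.75-fold that of input. The log2 fold change was 2.52 with an SE of 0.39 (edgeR, adjusted p = 0.00347), and 197 of 7645 genes had a larger one. Its log2 excess over control xRIP was 4.20 with an SE of 0.42 (edgeR, adjusted p = 4.6e-05). All 4 PRE matches of brp, at bases 838, 1951, 2131 and 3152 of its 4391-base 3′ UTR, lay beyond the most proximal annotated end, at base 301.

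The unc-13 transcript (chromosome 4, 867824 to 912331, minus strand, dm6) encodes the vesicle priming factor. It was at 1771, 845, 1604 and 1308 CPM in Pum xRIP replicates 1 to 4. The w118, pum, fne and rbp9 inputs held 459, 514, 528 and 460 CPM, and control xRIP replicates 1 to 4 held 113.1, 117.6, 118.1 and 92.97 CPM. As for brp, the 3 groups did not overlap, although the Pum xRIP libraries were more spread, with replicate 2 the lowest. The mean of 1382 ± 406 CPM (SD, n = 4) was 2.82-fold that of input. The log2 fold change was 1.49 with an SE of 0.27 (edgeR, adjusted p = 0.00738), and 653 of 7645 genes had a larger one. Its log2 excess over control xRIP was 3.65 with an SE of 0.29 (edgeR, adjusted p = 5.3e-06).

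The calls of brp and unc-13 against input held in each fit that left out 1 library, with log2 fold changes of 2.44 to 2.54 for brp and 1.34 to 1.66 for unc-13. They were lost when both inputs of mixed genotype were left out, with log2 fold changes of 2.38 (adjusted p = 0.0640, edgeR) and 1.48 (adjusted p = 0.0871, edgeR). In that fit 2 of all 8249 genes tested were called higher, against 42 genes in the fit of all libraries. Over all alternatives the adjusted p ranged from 8.7e-44 to 0.0640 for brp and from 4.7e-09 to 0.0871 for unc-13.

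**Figure D2:**
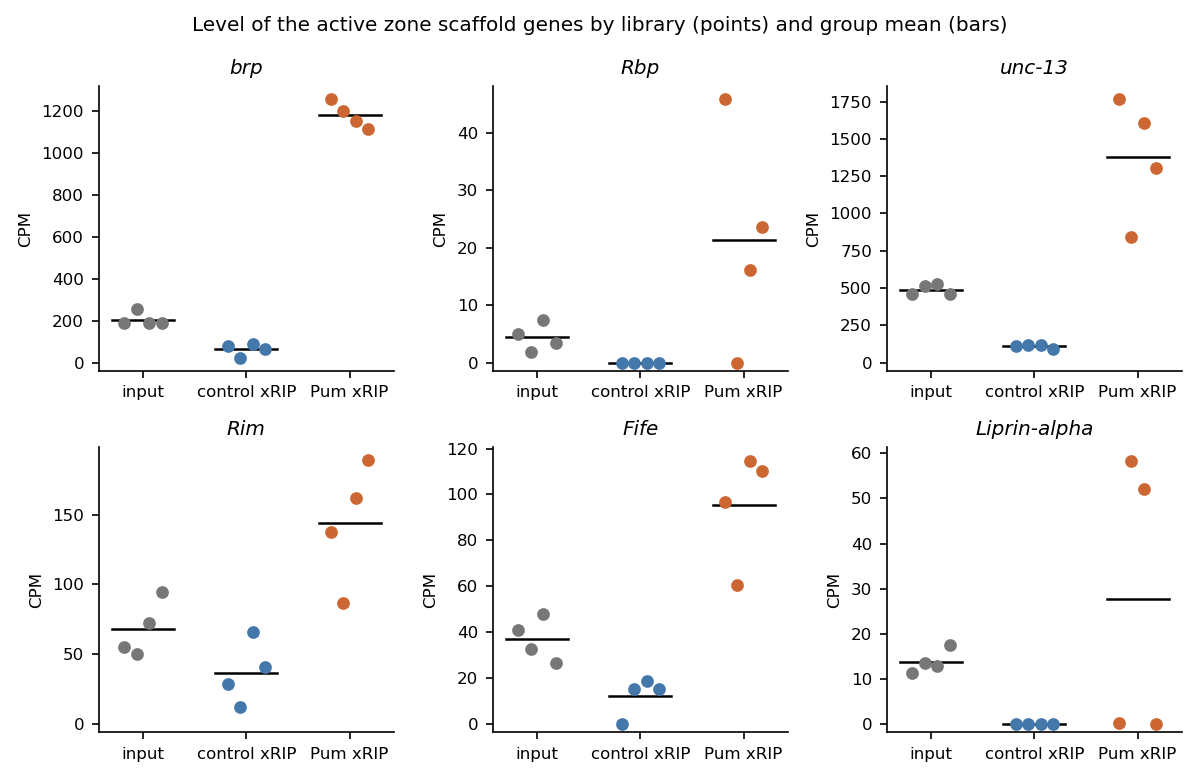
Level of each scaffold gene in CPM (linear axis) in the 12 libraries, with 1 point per library and a bar at the mean of the 4 libraries of a group. For brp and unc-13 the 4 Pum xRIP points lie above all others, between 1113 and 1258 CPM and between 845 and 1771 CPM, whereas for Rbp and Liprin-alpha some Pum xRIP points lie at or near 0.

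Rim (chromosome 3R, 17872748 to 17916578, minus strand, dm6) encodes the active zone protein that binds Rab3 on vesicles. It was at 138, 86.4, 162 and 189 CPM in Pum xRIP replicates 1 to 4, at 55.3, 50.6, 72.4 and 94.7 CPM in the w118, pum, fne and rbp9 inputs, and at 28.4, 12.04, 66.1 and 41.0 CPM in control xRIP replicates 1 to 4. Pum xRIP replicate 2 lay below the rbp9 input, so Pum xRIP and input overlapped, whereas Pum xRIP lay above all control xRIP libraries. Relative to input the log2 fold change was 1.08 with an SE of 0.64 (edgeR, adjusted p = 0.524). Relative to control xRIP it was 1.96 with an SE of 0.66 (edgeR, adjusted p = 0.0600). The latter crossed the threshold in 5 of 20 alternatives, among them both other scalings, and over all 20 its adjusted p ranged from 0.00057 to 0.222. The comparison with input crossed it in 1 of 19 alternatives, with an adjusted p from 0.0261 to 0.848.

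Fife (chromosome 3L, 2655415 to 2711690, minus strand, dm6) encodes a scaffold protein related to Piccolo and RIM that promotes vesicle docking. Its level was 96.8, 60.6, 114.7 and 110.3 CPM in Pum xRIP replicates 1 to 4 and 41.2, 32.7, 48.0 and 26.8 CPM in the w118, pum, fne and rbp9 inputs. In control xRIP replicates 1 to 4 it was 0, 15.1, 18.6 and 15.3 CPM. The 3 groups did not overlap. The SE of the fit was large, however, and neither comparison passed the test. The fit used 1 estimate of spread per gene for all 3 groups, so the comparison with input also took in the spread of control xRIP. The log2 fold change was 1.36 with an SE of 1.10 relative to input (edgeR, adjusted p = 0.779) and 2.96 with an SE of 1.17 relative to control xRIP (edgeR, adjusted p = 0.0849). The latter crossed the threshold in 3 of 20 alternatives, with an adjusted p from 0.00245 to 0.361. The former crossed it in 1 of 19 alternatives, DESeq2 on the groups compared (adjusted p = 0.00479).

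Rbp (chromosome 3R, 15374635 to 15402543, plus strand, dm6) encodes RIM-binding protein, which binds calcium channels and Rim. It was at 45.9, 0, 16.1 and 23.6 CPM in Pum xRIP replicates 1 to 4, against 4.93, 1.78, 7.50 and 3.37 CPM in the w118, pum, fne and rbp9 inputs. No count was recorded in control xRIP. Thus 3 Pum xRIP libraries exceeded all inputs, and replicate 2 lay below them. Relative to input the log2 fold change was 2.28 with an SE of 1.95 (edgeR, adjusted p = 0.820). The counts rested on few 3′ ends, since the 154, 87 and 97 counts of replicates 1, 3 and 4 came from 2, 2 and 1 clusters.

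Liprin-alpha (chromosome 2L, 6723903 to 6732766, plus strand, dm6) was at 0.298, 58.4, 52.0 and 0 CPM in Pum xRIP replicates 1 to 4. The w118, pum, fne and rbp9 inputs held 11.3, 13.6, 12.9 and 17.4 CPM, and control xRIP held 0 counts. Here Pum xRIP replicates 2 and 3 were the highest libraries, and replicates 1 and 4 held 1 and 0 counts. Relative to input the log2 fold change was 1.0 with an SE of 2.01 (edgeR, adjusted p = 0.986).

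Pum xRIP was compared with control xRIP to separate recovery with Pum from recovery without the tag. Transcripts of brp, unc-13, Rbp and Liprin-alpha were called higher in Pum xRIP, and 0 were called lower. These were 4 of 6 scaffold genes, where 7.72% of all tested genes were called higher and 4.45% lower. The calls of Rbp and Liprin-alpha rested on control libraries without counts, which allow a level of up to 0.215 CPM (3 counts over the group, for counting error only). Against that bound the mean of Pum xRIP was at least 99.7-fold higher for Rbp and at least 129-fold higher for Liprin-alpha. These bounds cover the control side only. The Pum xRIP means were 21.4 ± 19.1 CPM and 27.7 ± 31.9 CPM (SD, n = 4), each with 1 library at 0. The edgeR test of the fitted fold change gave an adjusted p of 0.0387 for Rbp and 0.0468 for Liprin-alpha. Both calls were lost in most fits that left out 1 library. The call of Rbp held only without Pum xRIP replicate 2 (adjusted p = 0.0159), and that of Liprin-alpha only without Pum xRIP replicate 1 (adjusted p = 0.0470) or replicate 4 (adjusted p = 0.0302), all with edgeR. Over all alternatives the adjusted p ranged from 0.00016 to 0.149 for Rbp and from 0.0001 to 0.149 for Liprin-alpha. The median log2 fold change was 3.92 over the 6 genes and 0 over all genes tested. That of all genes was 0.27 under either other scaling (DESeq2 size factors or library totals). The median of the 6 genes lay between unc-13 and brp. Setting Rbp and Liprin-alpha to their bounds could not move it, since both stayed above brp.

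The libraries were also compared one by one. All 4 Pum xRIP libraries exceeded all 4 inputs for brp, unc-13 and Fife (3 of 6 genes, against 5.57% of all tested genes). They exceeded all control xRIP libraries for these genes and Rim (4 of 6, against 9.95% of all tested genes). They exceeded all 8 other libraries for brp, unc-13 and Fife, against 4.47% of all tested genes. The Pum xRIP libraries of Rbp and Liprin-alpha overlapped both other groups.

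**Figure D3:**
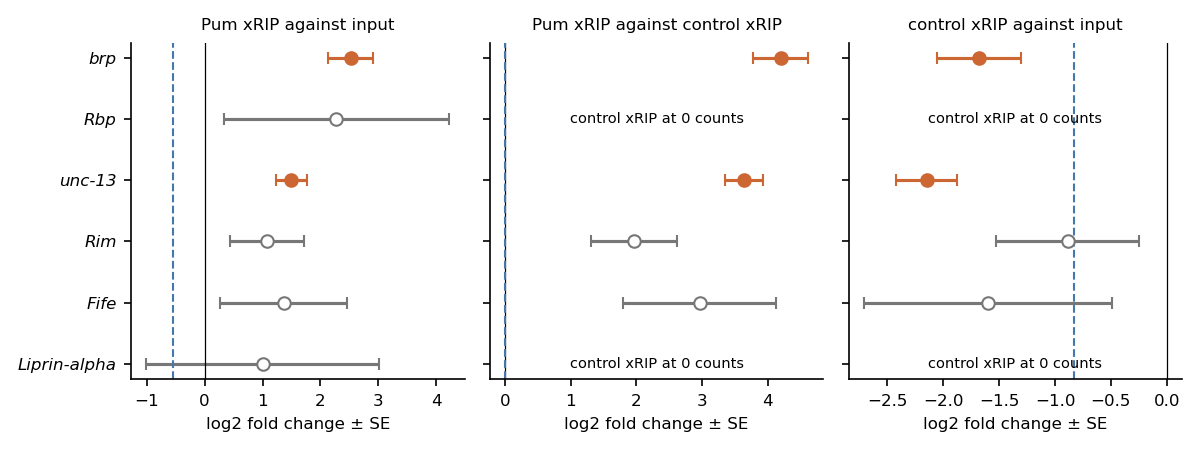
Log2 fold change of each scaffold gene (points) with its SE (bars) from the edgeR fit in 3 comparisons, with filled points for genes past the test. The solid line marks 0 and the dashed line the median of all genes tested, −0.54, 0 and −0.83 from left to right, and no fitted value is drawn where control xRIP held 0 counts.

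Control xRIP was compared with input to measure how much scaffold RNA was recovered without the tag. Transcripts of brp and unc-13 were lower in control xRIP than in input, by −1.68 with an SE of 0.38 on the log2 scale (edgeR, adjusted p = 0.0105) and by −2.15 with an SE of 0.27 (edgeR, adjusted p = 0.000261). These were 2 of 6 genes, and 0 were higher, where 10.7% of all tested genes were called lower and 1.82% higher. Against the bound of 3 counts over control xRIP, input was at least 20.5-fold higher for Rbp and at least 64.4-fold higher for Liprin-alpha, but neither gene passed the test (adjusted p = 0.0652 and 0.0578, edgeR). The 4 control libraries lay below all inputs for each gene except Rim, that is for 5 of 6 genes, against 31.8% of all tested genes. The median log2 fold change was −1.91 over the 6 genes and −0.83 over all genes tested. Other markers moved with the control libraries. The summed level of 4 muscle genes was 8371 to 24035 CPM in control xRIP, 512 to 1875 CPM in input and 150 to 2709 CPM in Pum xRIP, and most of it in control xRIP came from TpnC25D. That of 3 testis genes was 459 to 939 CPM in control xRIP, 4.33 to 142 CPM in input and 0 to 18.3 CPM in Pum xRIP. That of 4 photoreceptor genes was 7047 to 8589 CPM in control xRIP, 21219 to 26774 CPM in input and 14541 to 18108 CPM in Pum xRIP, where norpA was called higher and Arr2 and trp lower than in input. That of 4 genes of fat body and female tissue was 2043 to 3075 CPM in control xRIP, 4374 to 11050 CPM in input and 3566 to 5923 CPM in Pum xRIP. That of 4 glial genes was 1401 to 1716 CPM in control xRIP, where repo was at 0, 1545 to 2459 CPM in input and 963 to 1728 CPM in Pum xRIP. The glial genes differed in direction between Pum xRIP and input. Gs2 was called lower, with means of 469 and 1490 CPM, and Eaat1 higher, with means of 830 and 299 CPM. Neither repo nor alrm was called. The part of these markers, and of the neuronal markers that were low in control xRIP, in the differences of the scaffold genes from control xRIP was not tested.

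Scaffold transcripts were next resolved into clusters of neighbouring 3′ ends, the unit in which 3′ UTR isoforms and internal ends are counted. A cluster carries a number but no position, and numbers were taken to follow genome position. The table held 56 clusters for brp, 88 for unc-13, 28 for Rim, 22 for Fife and 14 each for Rbp and Liprin-alpha, of which 11, 21, 5, 2, 0 and 1 passed the filter on low counts. More brp clusters were detected in Pum xRIP (15 to 21 per library) than in control xRIP (2 to 4), and fewer than in input (22 to 30). For unc-13 these numbers were 14 to 31, 2 to 8 and 39 to 53.

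One 3′ end dominated brp. Cluster 57, the 55th of 56 from the proximal side, held 51.9% of the brp counts of the input libraries, 56.5% of those of control xRIP and 51.6% of those of Pum xRIP. Its share was 35.4%, 41.4%, 73.6% and 52.9% in Pum xRIP replicates 1 to 4 and 54.2%, 36.002%, 61.7% and 54.5% in the w118, pum, fne and rbp9 inputs, so the groups overlapped. Cluster 52 held 4.50% of the counts in input, 11.9% in control xRIP and 10.9% in Pum xRIP, although 1627 of its Pum xRIP counts came from replicate 2 and 31 to 470 from the others. Cluster 30, in the middle of the series, held 11.8% in input, 0% in control xRIP and 3.86% in Pum xRIP. It held 8.76% to 17.4% of the counts in each input and 0.464% to 9.78% in each Pum xRIP library, which overlapped. Cluster 2, near the proximal side, held 4.82% in input, 11.5% in control xRIP and 6.84% in Pum xRIP, and it was the largest in control xRIP replicate 2, where brp had 77 counts in all.

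The unc-13 counts were divided among more ends. Cluster 79, the 13th of 88 from the proximal side, held 17.8% of the counts in input, 2.41% in control xRIP and 15.6% in Pum xRIP. Its share was 0.244%, 0%, 0% and 10.6% in control xRIP replicates 1 to 4. In the Pum xRIP libraries it was 9.20% to 24.1%, so these groups overlapped. Cluster 48, the 44th, held 17.1% in input, 0% in control xRIP and 8.24% in Pum xRIP. Its share was 16.3% to 18.2% in the inputs and 5.84% to 11.7% in the Pum xRIP libraries, which did not overlap. Cluster 15, the 75th, held 10.6% in input, 17.4% in control xRIP and 15.5% in Pum xRIP. Its share was 8.35% to 12.4% in the inputs and 13.5% to 18.9% in the Pum xRIP libraries, again without overlap but in the other direction. In control xRIP replicates 1 to 4 it was 0%, 29.3%, 0% and 42.4%, on both sides of the Pum xRIP libraries. Cluster 28, the 64th, held 11.7% in input, 10.4% in control xRIP, all of it from replicate 3, and 13.4% in Pum xRIP, with overlapping libraries. Shares of a cluster in single libraries were described and not tested. How often the shares of other clusters in the whole table separate Pum xRIP from input was not counted. In level, neither cluster 48 (edgeR, adjusted p = 0.980) nor cluster 15 (edgeR, adjusted p = 0.704) was called against input.

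**Figure D4:**
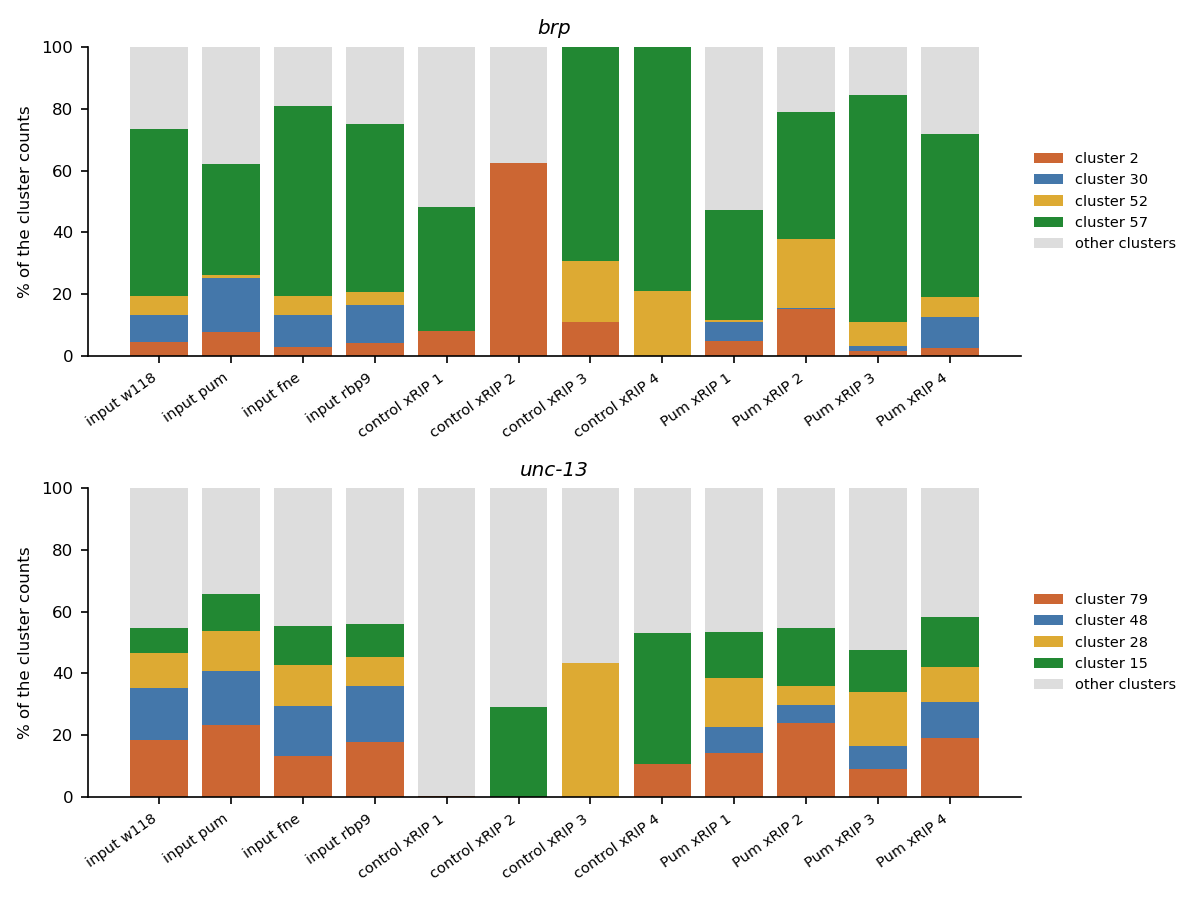
Share of the brp counts (top) and unc-13 counts (bottom) in each library that fell in the 4 clusters described, stacked from the proximal to the distal cluster, with all other clusters in grey. The control xRIP bars rest on 77 to 288 counts for brp and 340 to 420 counts for unc-13, and the share of unc-13 cluster 48 is 16.3% to 18.2% in the inputs and 5.84% to 11.7% in Pum xRIP.

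Tested one by one among 14235 clusters, edgeR called 0 of the 40 scaffold clusters higher or lower in Pum xRIP relative to input, where 0.211% of all clusters were called higher and 9.48% lower. At an unadjusted p below 0.05 there were 3, all of brp, namely its clusters 22, 48 and 57. Their log2 fold changes were 4.61, 3.73 and 2.18 (edgeR, adjusted p = 0.0911, 0.141 and 0.223). Cluster 22 of brp held 0.772% of the counts in input and 4.35% in Pum xRIP. DESeq2 with 3 groups called 4 of the 40. The median log2 fold change of the 40 clusters was 0.89, and that of all clusters was −0.91. Against control xRIP, 11 of the 40 were called higher, 5 of brp and 6 of unc-13, and 0 lower, where 8.91% of all clusters were called higher and 3.07% lower. Of these, 4 of brp and 5 of unc-13 had no count in control xRIP. The main end of brp, cluster 57, was among the called clusters, with 566 ± 192 CPM in Pum xRIP and 35.3 ± 26.5 CPM in control xRIP (SD, n = 4 each) and a log2 difference of 4.0 with an SE of 1.09 (edgeR, adjusted p = 0.0364). That call held in 7 of 18 alternatives, with an adjusted p from 0.00024 to 0.114. For unc-13, cluster 79 was at 201 ± 43.6 CPM in Pum xRIP and 2.48 ± 4.78 CPM in control xRIP (SD, n = 4 each, edgeR adjusted p = 0.0223). Cluster 48 of unc-13 reached 111 ± 45.4 CPM (SD, n = 4) against 0 counts in control xRIP (adjusted p = 0.00037, edgeR) and 101.6 ± 6.42 CPM in input (SD, n = 4). In control xRIP relative to input, 16 of the 40 clusters were called lower and 0 higher, where 25.6% of all clusters were called lower and 0.576% higher. These were 5 clusters of brp, 8 of unc-13 and 3 of Rim.

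In the other genes, the counts of most single ends varied widely between Pum xRIP libraries. In Rim, cluster 12 had 316, 253, 172 and 0 counts in Pum xRIP replicates 1 to 4, and cluster 1, the most distal, had 31, 12, 241 and 628. An exception was Fife, where cluster 7 was detected in all Pum xRIP libraries, with 283, 370, 158 and 243 counts, and held 55.1% of the counts in input and 59.6% in Pum xRIP. In Liprin-alpha, cluster 15, the most distal, had 1, 0, 195 and 0 counts in Pum xRIP replicates 1 to 4, and clusters 6 and 8 supplied the 183 and 173 counts of replicate 2. In Rbp, cluster 13 gave 114 counts in replicate 1, cluster 11 gave 78 in replicate 3 and cluster 5 gave 97 in replicate 4. No cluster of Rbp or Liprin-alpha had counts in all 4 Pum xRIP libraries, whereas 7 clusters of brp, 7 of unc-13, 1 of Rim and 1 of Fife did.

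To ask whether Pum xRIP recovered more distal ends, the clusters past the filter were ranked from 0 (most proximal) to 1 (most distal), and their rank was averaged by counts in each library. For unc-13 the mean rank was 0.594, 0.492, 0.584 and 0.542 in Pum xRIP replicates 1 to 4 and 0.435, 0.408, 0.491 and 0.473 in the w118, pum, fne and rbp9 inputs. All Pum xRIP libraries thus lay above all inputs, narrowly for replicate 2. The group means were 0.553 ± 0.0463 and 0.452 ± 0.0375 (SD, n = 4 each), and the exact two-sided permutation p was 0.0286, the smallest that 4 against 4 libraries can give. Adjusted over the 8 comparisons made (4 genes, each against input and control xRIP), it was 0.229, so a single gene could not pass the adjusted test in this design. The control xRIP libraries were at 0.852, 0.815, 0.575 and 0.807, with a mean of 0.762 ± 0.127 (SD, n = 4), and 3 of them lay above all Pum xRIP libraries. The same comparison gave 0.806 and 0.733 for brp (exact permutation p = 0.400), 0.808 and 0.700 for Rim (exact permutation p = 0.229) and 0.759 and 0.922 for Fife (exact permutation p = 0.257). The difference of Pum xRIP minus control xRIP was −0.209 for unc-13 (exact permutation p = 0.0857), 0.168 for brp (exact permutation p = 0.743), −0.0676 for Rim (exact permutation p = 0.429) and −0.241 for Fife (exact permutation p = 0.257), the last over 3 control libraries with counts. Rbp and Liprin-alpha had too few clusters for a rank. The second test, diffSpliceDGE of edgeR, which asks whether the clusters of a gene changed unequally, called none of the 4 genes between Pum xRIP and input (adjusted p = 0.793 for brp, 0.998 for unc-13, 0.922 for Rim and 0.818 for Fife), where 12.1% of 3095 genes were called. Between Pum xRIP and control xRIP it called brp (adjusted p = 0.000463), unc-13 (adjusted p = 0.000181) and Fife (adjusted p = 0.0391) but not Rim (adjusted p = 0.0524), where 39.7% of genes were called. Between control xRIP and input it called brp (adjusted p = 0.000319), unc-13 (adjusted p = 4.7e-06) and Rim (adjusted p = 0.0167) but not Fife (adjusted p = 0.0985), where 28.2% of genes were called.

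A chosen list of other genes related to the active zone gave a wider view. Of 17 genes for calcium channels, assembly partners and axonal transport of active zone material, 0 were called in Pum xRIP against input with edgeR, 1 had an unadjusted p below 0.05, and the DESeq2 fit of both groups alone called 2. Their median log2 fold change was 0.71, against −0.54 over all genes. Against control xRIP 7 of the 17 were called higher and 0 lower, where 7.72% of all tested genes were called higher. In control xRIP against input 7 were called lower and 0 higher, where 10.7% of all tested genes were called lower. Among them was cac, the pore-forming subunit of the presynaptic calcium channel. It was at 1773, 1650, 2225 and 2140 CPM in Pum xRIP replicates 1 to 4, 266 to 448 CPM in input and 0 to 44.5 CPM in control xRIP. The groups did not overlap, and the log2 fold change was 2.6 with an SE of 0.87 relative to input (edgeR, adjusted p = 0.0981) and 7.03 with an SE of 1.07 relative to control xRIP (edgeR, adjusted p = 0.000875). The former crossed the threshold in 4 of 19 alternatives, with an adjusted p from 6.1e-32 to 0.456. These were edgeR and DESeq2 on the groups compared and the fits without control xRIP replicate 2 or replicate 3. The comparison of cac with input thus depended on the control xRIP libraries that shared its fit. Rab3-GEF, an exchange factor for Rab3, was at 69.99 to 236 CPM in Pum xRIP, 46.6 to 67.0 CPM in input and 0 to 9.10 CPM in control xRIP, with a log2 fold change of 4.96 against control xRIP (adjusted p = 0.0136, edgeR). Nrx-1, the presynaptic adhesion protein Neurexin, was at 812 to 1447 CPM in Pum xRIP, 482 to 980 CPM in input and 10.4 to 148 CPM in control xRIP, with a log2 fold change of 4.02 against control xRIP (adjusted p = 0.00114, edgeR). The remaining called genes were stj (the alpha2-delta calcium channel subunit), Spn (Spinophilin), unc-13-4A and Arl8 (a lysosome-related GTPase of axonal transport). These had no count in control xRIP and 0 to 186 CPM in single Pum xRIP libraries. The list placed unc-13-4A, also named stac, with the assembly partners, and its role at the active zone was not examined here.

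The levels of the 6 genes did not move together to the same degree over the 12 libraries. Pearson's r of log2 CPM, given as a description over libraries that share groups and depth, was highest between brp and unc-13 (0.930), followed by brp and Rim (0.891), and lowest between Rbp and Liprin-alpha (0.240). The genes most alike to brp were qvr (0.978), Bsg (0.974) and slmb (0.972), and those most alike to unc-13 were hbn (0.993), dpr10 (0.990) and CG34353 (0.989). For Rim they were nAChRalpha6 (0.941), a nicotinic acetylcholine receptor subunit, fray (0.940) and HisT (0.929), and for Fife they were Sh (0.993), the Shaker potassium channel, CG31038 (0.991) and Vinc (0.984). For Rbp they were CG1208 (0.994), tweek (0.985) and Dop1R2 (0.977), and for Liprin-alpha CG4849 (0.995), CG3999 (0.994) and Noc1 (0.990).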

How the data were processed

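RNA 3′ ends were measured in 12 libraries (QuantSeq REV) of fly heads. The authors used fastp for trimming and STAR 2.6.1b, without splicing, for mapping to dm6, removed ends next to genomic runs of A, kept signal inside or shortly downstream of genes, merged ends into clusters and deposited raw counts per gene and per cluster, without normalization or molecular identifiers. Copies of 1 molecule were therefore counted as separate reads, and bounds cover counting error only. Summed over its clusters, each of the 10422 genes gave its gene count. The tables made for DESeq2 by the authors held the same counts (0 differing cells) and were not used. Clusters had no coordinates and were not filtered for high-confidence ends. Numbers were taken to follow genome position: among 2245 plus-strand genes of at least 4 clusters the top cluster by abundance carried the highest number in 574 and the lowest in 167, and among 2308 minus-strand genes in 165 and 523.

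Counts were tested with edgeR 4.0.16 in R 4.3.3 (quasi-likelihood F test, TMM, default filter by group, Benjamini-Hochberg adjustment over all genes or clusters tested). All 12 libraries entered 1 fit of 3 groups, which shared 1 estimate of spread per gene or cluster. SE is the log2 fold change over the square root of F. The pum and w118 input columns matched labels, whereas fne and rbp9 were assigned to the input group only. No 2 replicates agreed within sampling noise (lowest chi-square over its degrees of freedom, 74.0). Clusters were named if they had 10% or more of a gene's counts in any group, at most 4 per gene. Clusters 22 and 48 of brp were added for their unadjusted p below 0.05 against input. Genes alike were the 3 with the highest Pearson's r of log2 CPM (prior count 2). Other active zone genes were named if called in either comparison of Pum xRIP. Symbols and 3′ UTRs came from Ensembl (BDGP6.54, on dm6, newer than the annotation of the authors), which held 10345 of the 10422 genes; Ca-beta and the marker dj were not matched. Alternatives were DESeq2 1.42.0 on 3 groups or on the groups compared, edgeR on the groups compared, DESeq2 size factors, library totals, no filter, each library left out, both inputs of mixed genotype left out, and the replicate number as a block. In simulated data the edgeR fit recovered nearly all changes when the spread was set low, but few at the spread of these libraries, so a gene that was not called may still differ. The genes and lists were chosen with earlier results of these data known.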

Additional observations from a re-analysis of the deposited data

Results flagged for a closer look

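Among 27 groups of 4 libraries checked for a library far from the others, 4 held one whose gap to its nearest neighbour, as a share of the range of the group, exceeded Dixon's critical value. Chance flags about 1 in 20 groups. The brp level of the pum input, 256 CPM, stood above the other inputs at 187 to 191 CPM (0.941 of the range). Without that input the log2 fold change of brp against input was 2.54 (adjusted p = 0.00895, edgeR). The mean rank of Rim 3′ ends was 0.510 in the same input and 0.740 to 0.780 in the other inputs (0.851 of the range). The mean rank of unc-13 3′ ends was 0.575 in control xRIP replicate 3 and 0.807 to 0.852 in the other control xRIP libraries (0.837 of the range). Among Pum xRIP libraries, replicate 4 had a mean rank of Rim 3′ ends of 0.921, whereas the rest had 0.761 to 0.777 (0.902 of the range).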

How the results depend on the processing

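Of 1239 values of single genes, clusters and ranks under alternatives, 1121 kept their direction and side of the threshold, 67 lost it, 37 crossed it and 14 changed sign. Against input, the number of scaffold genes called higher (2) was 4 with DESeq2 on the groups compared, 0 without both inputs of mixed genotype and 2 to 2 with 1 library left out. Against control xRIP (4) it was 6 with DESeq2 on 3 groups, 5 with either other scaling, 3 without a filter, 2 with edgeR on the groups compared, 2 without both inputs of mixed genotype and 2 to 3 with 1 library left out. In control xRIP against input the number called lower (2) was 4 with DESeq2 on 3 groups, 4 with edgeR and 4 with DESeq2 on the groups compared, 1 without both inputs of mixed genotype and 2 to 3 with 1 library left out. For clusters against input (0) it was 4 with DESeq2 on 3 groups, 5 with edgeR on the groups compared and 0 to 1 with 1 library left out. For clusters against control xRIP (11) it was 6 without a filter, 25 with DESeq2 on 3 groups and 6 to 14 with 1 library left out. In the 2-group fits of Pum xRIP and control xRIP, Rbp and Liprin-alpha did not pass the filter. The number of genes with a shifted rank was 0 throughout, which the design nearly fixed, since 1 gene at the smallest possible p reaches only 0.229 after adjustment. The PRE count (11) was 1 in the last 1000 bases of the 3′ UTRs. Fits without both inputs of mixed genotype rest on fewer libraries. The cause was not tested for any of these differences.

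Some log2 fold changes, of which 1 passed a test, changed sign. Against input these were unc-13 cluster 48 (−0.26 without a filter, −0.0909 to 0.34 with 1 library left out), Rim cluster 12 (−0.0587, −0.48 to 0.68), Liprin-alpha cluster 15 (−0.101, −6.24 to 0.62, the lowest without Pum xRIP replicate 3, with an edgeR adjusted p of 0.0327), Rim cluster 1 (−0.66 to 1.39 with 1 library left out) and stj (−0.0031 to 0.54). Against control xRIP, Rim cluster 1 ranged from −0.26 to 2.45. With all clusters ranked, the difference was −0.0134 for Rim and 0.104 for Fife, against 0.108 and −0.163. That of unc-13 was 0.0725 with all clusters and 0.0873 with those of at least 10% of the counts, against 0.101.

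Same-numbered libraries of Pum xRIP and control xRIP deviated from their groups with correlations of 0.0011 to 0.0208. Those of other numbers gave −0.0285 to 0.0270. No pairing was seen, but the xRIP libraries varied so much that this check cannot exclude it. With the replicate number as a block in a fit of the 8 xRIP libraries, 2 scaffold genes and 4 clusters were called higher against control xRIP.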
